A study of Mus musculus with 8 samples.

Results

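Transcripts of 10 inflammatory cytokines, out of 22756 genes counted in each library, were followed across genotype and cigarette smoke (CS) in mouse distal lung. They were taken by gene symbol: Tnf, Il1a, Il1b, Il6, Il18, Il33, Il1rn, Il10, Tgfb1 and Csf1. RNA-Seq was made from distal lung cells that had been lavaged and depleted of CD45-positive cells to enrich the epithelium, in 8 libraries of adult mice whose strain was mostly C57BL/6. Both lines carried the IRES-tauGFP cassette at Chrna7, the gene of the nicotinic receptor α7, and the α7G line (Chrna7-IRES-tauGFP) was the control genotype. The α7E260A:G line (Chrna7-E260A-IRES-tauGFP) carried in addition a point mutation that restricts α7 signalling. Mice of each genotype either breathed side-stream CS for 4 months, on 5 days of each week, or were kept in room air as control. Each of the 4 groups held 1 male and 1 female library, and the number of mice behind a library was not given in the sources used here, so every p-value measures the spread between these libraries only.

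Cytokines of this set stand on both sides of an inflammatory response. IL-1α, IL-1β and TNF start it in neighbouring cells, IL-6 carries it onward through STAT3, and IL-18 and IL-33 are stored precursors of the IL-1 family whose release alerts lymphoid cells. The IL-1 receptor antagonist, IL-10 and TGF-β1 restrain it, and CSF-1 sustains macrophages. In the lung, macrophages and epithelium share the production of several of these. IL-33 is held in the nucleus of alveolar type II (ATII) cells in mice, and IL-1α and IL-18 are made by alveolar macrophages among other cells.

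**Figure D1:**
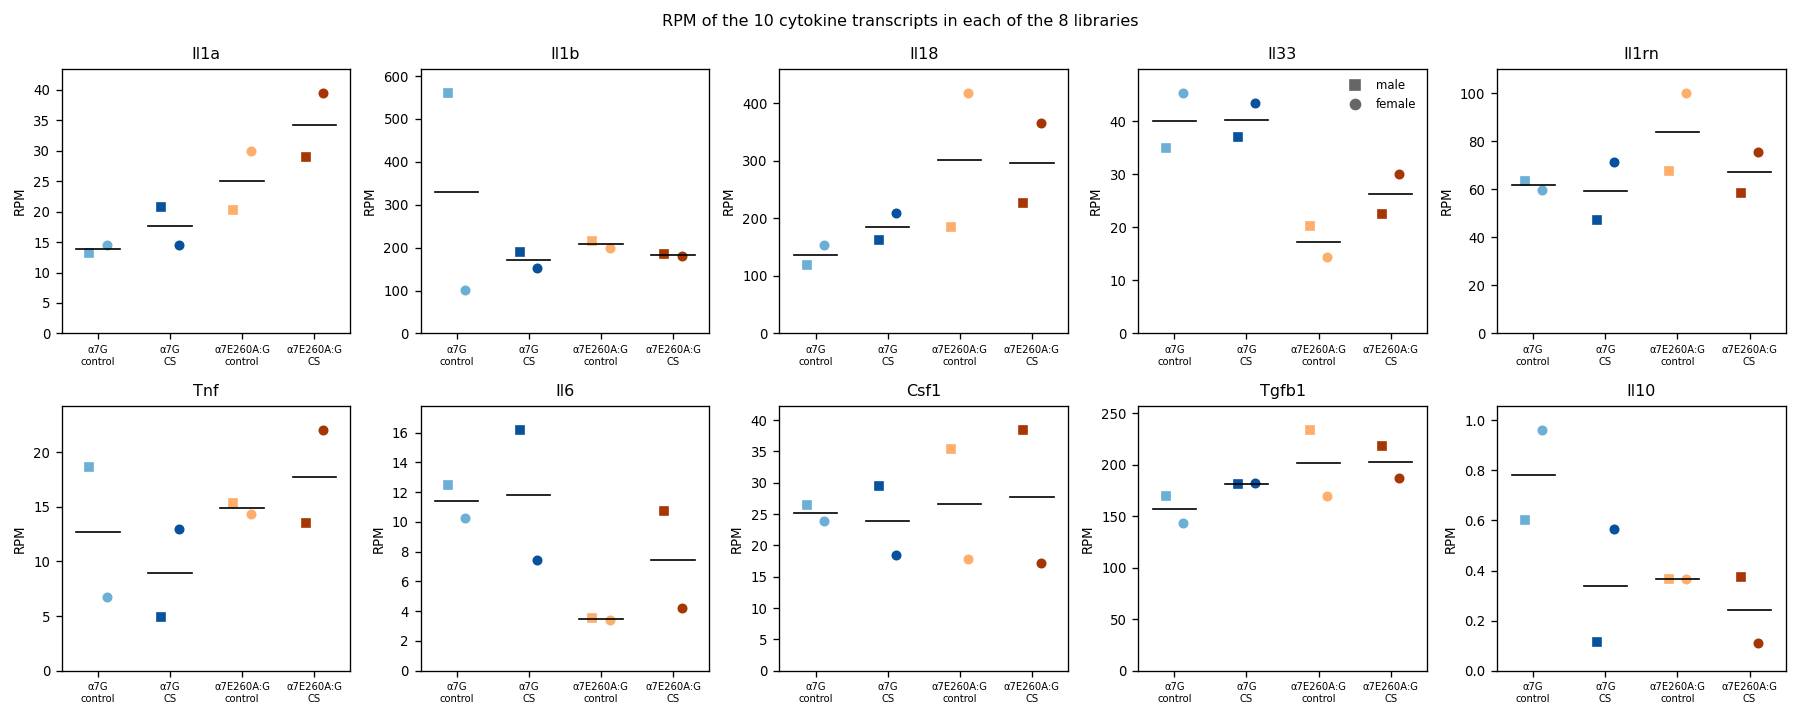
Counts of each cytokine transcript per 1000000 counts of its library (RPM, linear axes from 0) in each library; squares are male, circles are female and the horizontal bars are means of 2 libraries. All 4 α7E260A:G libraries lie below all 4 α7G libraries for Il33, and the male α7G control library stands alone at 561 RPM for Il1b.

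The promoters of the 4 cytokines whose genotype difference was largest against its error are shown because Il33 and Il6 were the lower pair and Il1a and Il18 the higher pair in α7E260A:G. RefSeq windows (GRCm38.p6, from 250 bases before to 50 after a start site) matched 9 of the 10 genes by symbol, in 12 windows, and Il10 had none. The 100 bases before each start are printed from 5′ to 3′ on the gene's strand, with capitals marking matches to TATAAA, to the AP-1 letters TGANTCA or to the κB consensus. The windows lie at chr2:129309973-129310072 (minus strand) for Il1a, chr9:50554600-50554699 (plus) for Il18, chr5:30013014-30013113 (plus) for Il6, and chr19:29925013-29925112 and chr19:29945690-29945789 (both plus) for the first and second Il33 windows.
Il1a: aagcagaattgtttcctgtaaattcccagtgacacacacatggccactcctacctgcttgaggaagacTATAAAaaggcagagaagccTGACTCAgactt
Il18: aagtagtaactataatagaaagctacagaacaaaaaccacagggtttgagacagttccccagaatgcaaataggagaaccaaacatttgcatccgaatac
Il6: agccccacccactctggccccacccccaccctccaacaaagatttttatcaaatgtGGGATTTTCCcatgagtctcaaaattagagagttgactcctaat
Il33 first: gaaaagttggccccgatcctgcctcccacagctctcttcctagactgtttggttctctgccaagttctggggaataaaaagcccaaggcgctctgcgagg
Il33 second: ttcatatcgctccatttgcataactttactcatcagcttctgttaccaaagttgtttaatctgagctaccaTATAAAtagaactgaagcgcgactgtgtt

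The higher pair and the lower pair did not separate by these letters. TATAAA began 32 bases before the start of Il1a and 29 bases before the second start of Il33, and the Il18 stretch held none of the motifs. Il6 held the κB consensus 44 bases before its start. Over whole windows and both strands, TATAAA was found in 7 of the 12 windows (of Tnf, Il1a, Il1b, Il18, Il1rn and both of Il33), against 13.6% of all 32851 promoter windows. The κB consensus was found in 3 of the 12 (of Il6, Tgfb1 and Csf1), against 5.80% of all windows, and TGANTCA in 3 (of Il1a, Il6 and Il1rn), against 7.81%. Of the 3 Il1rn windows the last 2 overlap each other. The STAT letters TTCNNNGAA, found in 8.30% of all windows, were in none of the members' windows. A match is a description of the letters, and CDS counts do not tell which of 2 starts a transcript used.

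Library totals ran from 8020726 to 10944100 counts, so that 1 count was worth 0.091 to 0.125 RPM. Chrna7 itself had 0 counts in 7 libraries and 4 counts in the male α7E260A:G control library, so its counts do not check the genotype labels. The summed markers of alveolar macrophages and of ATII cells did not overlap between the genotypes, and no marker of either list was at 0. The summed level of 15 alveolar macrophage markers (of 16 listed) was 10937 to 18205 RPM in α7G and 25722 to 41616 RPM in α7E260A:G, with 15 of 15 higher in α7E260A:G. The summed level of 10 ATII markers was 20198 to 30802 RPM in α7G and 4821 to 14899 RPM in α7E260A:G, with 0 of 10 higher in α7E260A:G. The 5 general epithelial markers were present in every library at 1002 to 1886 RPM in sum, with a ratio of α7E260A:G to α7G means of 0.773. Leukocyte transcripts remained after the depletion, with the 6 pan-leukocyte markers at 5201 to 6883 RPM in sum. Ptprc, the gene of CD45, was at 771 to 1935 RPM and Epcam, of the epithelial list, at 78.5 to 212 RPM. In these bulk libraries fewer cells of a type and less RNA per cell cannot be told apart. The libraries differed as well in how counts followed CDS length, from 0.37 log2 units higher per doubling of length in the male α7E260A:G control to 0.27 log2 units lower per doubling in the female α7E260A:G control.

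**Figure D2:**
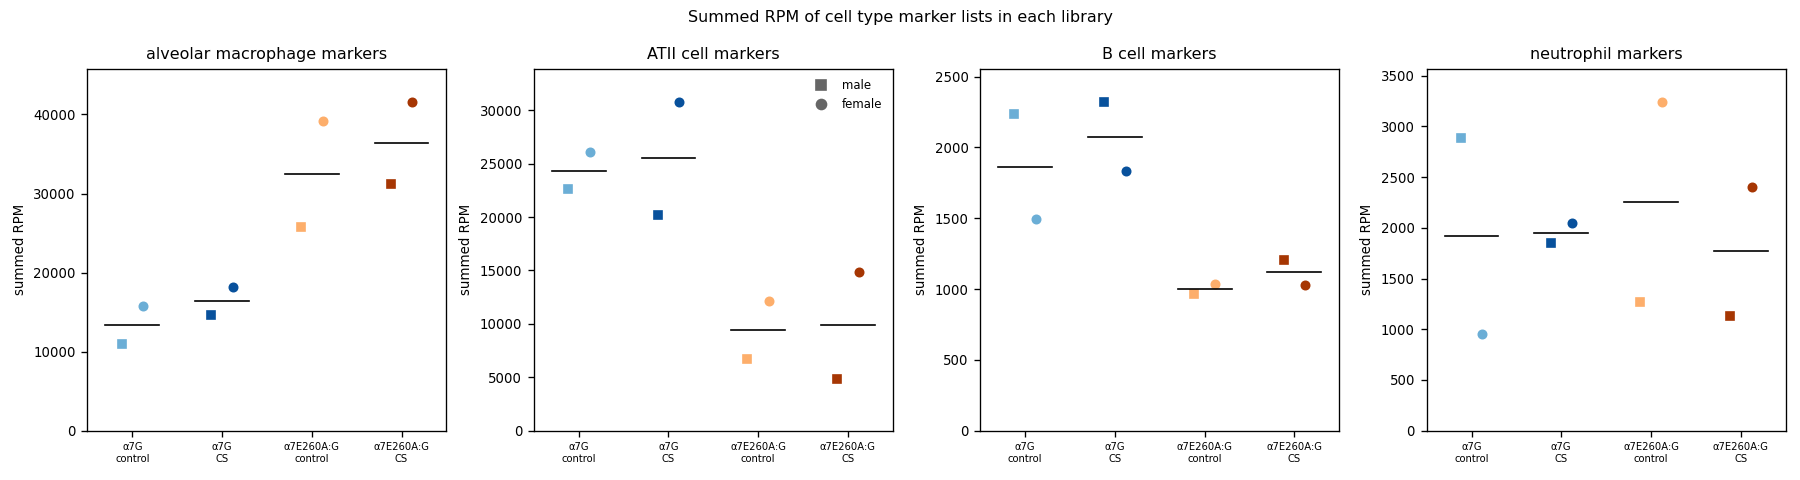
Summed RPM (linear axes from 0) of marker lists of 4 cell types in each library; squares are male, circles are female and the bars are means of 2 libraries. Alveolar macrophage markers sum to 25722 to 41616 RPM in α7E260A:G, above the 10937 to 18205 RPM of α7G, and ATII markers to 4821 to 14899 RPM, below the 20198 to 30802 RPM of α7G.

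In mm9, Il33 lies at chr19:29999604-30035194, Il6 at chr5:30339701-30346508, Il18 at chr9:50383378-50389942 and Il1a at chr2:129125346-129135708, where Il1b and Il1rn share its chromosome. The counts cover coding exons only, and none of the 10 genes overlapped another counted gene. Per kilobase of CDS, Il18 had the highest level among the cytokines and Il10 the lowest. Over the 8 libraries the median level was 342 RPM per kb for Il18, 233 for Il1b, 139 for Tgfb1, 114 for Il1rn, 40.7 for Il33, 25.3 for Il1a, 19.7 for Tnf, 14.0 for Il6, 13.4 for Csf1 and 0.692 for Il10. Ranges separated 3 blocks of this order. The first block was Il18, Il1b, Tgfb1 and Il1rn, in which neighbours overlapped and whose lowest library stood at 82.0 RPM per kb. The second block was Il33, Il1a, Tnf, Il6 and Csf1, in which neighbours overlapped too and whose highest library stood at 56.9 RPM per kb. Il10 stood alone, at 0.207 to 1.80 RPM per kb, below the lowest value of any other member.

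Il10, which encodes an anti-inflammatory cytokine of lymphocytes and macrophages, was close to the counting limit. It had 5 and 9 counts in the male and female α7G control, 1 and 5 in α7G CS, 3 and 4 in α7E260A:G control, and 3 and 1 in α7E260A:G CS. For the highest of these, 0.961 RPM, the exact Poisson interval (95%, covering counting error only) was 0.439 to 1.82 RPM. At a mean of 3.875 counts Il10 failed the filter (a mean count of 10 over the 8 libraries) and was not tested, whereas the other 9 members passed. The exact permutation test over libraries (two-sided, 4 against 4) gave p = 0.286 between the genotypes and p = 0.171 between the exposures. Differences of this size were not detectable at this depth.

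Which cytokines differed with the α7 mutation was asked by setting the 4 α7E260A:G libraries against the 4 α7G libraries. Il33 and Il6 were lower in α7E260A:G, at 0.542 and 0.471 of the α7G mean, and Il1a and Il18 were higher, at 1.88 and 1.86 times the α7G mean, each in 4 of 4 pairs of the same sex and exposure. None of the 9 members passed the adjusted p of 0.05 (quasi-likelihood test of edgeR, adjusted by Benjamini-Hochberg over 13637 genes), where 0.0953% of all genes tested passed. At an unadjusted p under 0.05 the 4 named here were past the threshold by edgeR, 4 of 9, against 11.4% of all genes. The members were chosen with earlier results of these data known, so shares of members past a threshold are descriptions and no independent evidence of enrichment. The 9 members were 6 higher and 3 lower, with a median log2 fold change of 0.33 against 0.03 over all genes tested.

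Il33, the alarmin that signals through the receptor encoded by Il1rl1, had the clearest separation. Its level was 34.9 and 45.4 RPM in the male and female α7G control and 37.1 and 43.5 RPM in the male and female α7G CS libraries. In α7E260A:G it was 20.2 and 14.4 RPM in control and 22.4 and 30.1 RPM in CS. The genotypes did not overlap, as was the case for 7.88% of all genes tested in either direction. The mean was 21.8 ± 6.48 RPM in α7E260A:G and 40.2 ± 5.02 RPM in α7G (SD, n = 4 each; exact permutation test, p = 0.0286, which is the smallest that 4 against 4 allows). The fitted log2 fold change was −0.83 ± 0.22 (SE; edgeR adjusted p = 0.185). On TMM-scaled values the 2 ranges overlapped. The ATII markers were also lower in the α7E260A:G libraries, with a ratio of means of 0.387 for their sum against 0.542 for Il33. The median log2 fold change of the 10 ATII markers was −1.17. Their part in the Il33 difference was not tested.

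Il6, a pleiotropic cytokine of acute inflammation, was low throughout. It was measured at 12.5 and 10.2 RPM in the male and female α7G control, at 16.2 and 7.45 RPM in α7G CS, at 3.53 and 3.38 RPM in α7E260A:G control and at 10.7 and 4.20 RPM in α7E260A:G CS. Of the α7E260A:G libraries only the male CS library overlapped with α7G, and each α7E260A:G library lay below its pair, with ratios from 0.282 to 0.663. The fitted log2 fold change was −1.12 ± 0.36 (edgeR adjusted p = 0.270; exact permutation test, p = 0.0857, n = 4 each). These levels rested on 29 to 139 counts, and 29 counts gave an interval of 2.37 to 5.08 RPM.

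Il1a, an IL-1 receptor agonist that acts also as an alarmin, moved the other way. It was measured at 13.2 and 14.5 RPM in the male and female α7G control, at 20.8 and 14.6 RPM in α7G CS, at 20.2 and 29.9 RPM in α7E260A:G control and at 28.9 and 39.5 RPM in α7E260A:G CS. The male α7G CS library and the male α7E260A:G control library overlapped by less than 1 RPM, and the other libraries were separated by genotype. The mean was 29.6 ± 7.88 RPM in α7E260A:G and 15.8 ± 3.42 RPM in α7G, and the fitted log2 fold change was 1.02 ± 0.28 (edgeR adjusted p = 0.204; exact permutation test, p = 0.0571, n = 4 each).

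Il18, whose precursor is cut by caspase-1 and which drives interferon-γ production by lymphocytes, was the most abundant member. It was measured at 119 and 154 RPM in the male and female α7G control, at 162 and 209 RPM in α7G CS, at 185 and 418 RPM in α7E260A:G control and at 226 and 366 RPM in α7E260A:G CS. The female library was the higher of each pair of sexes. With the dependence on CDS length removed, the male and female α7G control libraries were at 147 and 161 RPM. The α7G CS libraries were then at 131 and 174 RPM. In α7E260A:G the values were 258 and 327 RPM in control and 266 and 309 RPM in CS. The part of length in the Il18 difference between the sexes was not tested. Before this removal the ranges overlapped between the female α7G CS and the male α7E260A:G control libraries only. The fitted log2 fold change was 1.04 ± 0.37 (edgeR adjusted p = 0.317; exact permutation test, p = 0.0571, n = 4 each). The alveolar macrophage markers were higher in α7E260A:G as well, with a ratio of means of 2.31 for their sum against 1.86 for Il18 and 1.88 for Il1a. Chi3l3, at 6245 to 31633 RPM, made up most of that sum in each library. The median log2 fold change of the 15 markers was 0.92. The part of these markers in the Il18 and Il1a differences was not tested.

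**Figure D3:**
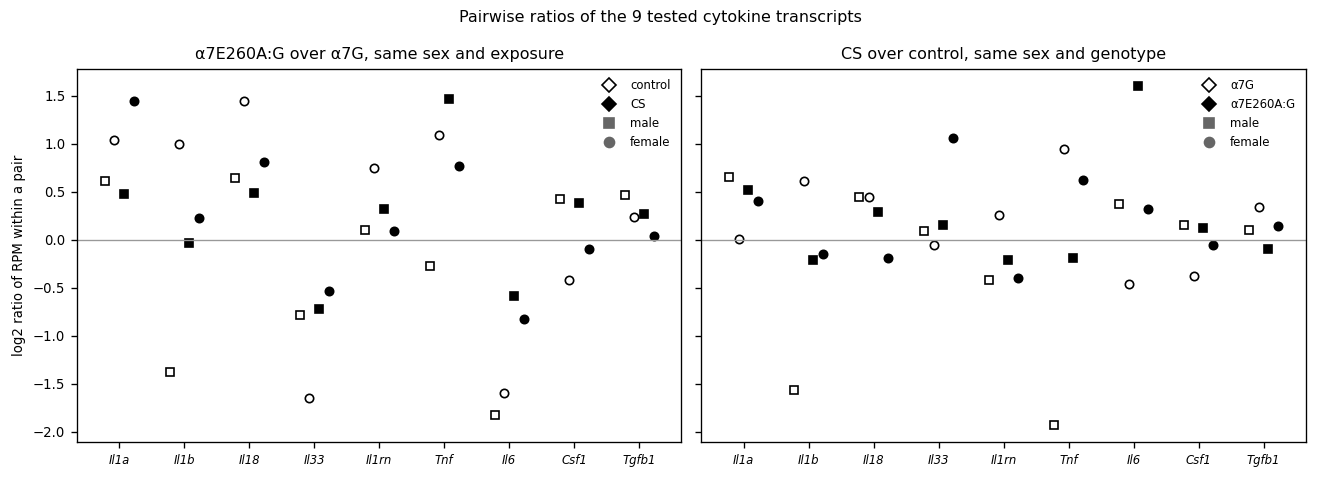
Log2 ratio of RPM within pairs of libraries, for α7E260A:G over α7G (left; open symbols control, filled CS) and for CS over control (right; open symbols α7G, filled α7E260A:G); squares are male and circles are female. On the left Il1a, Il18, Il1rn and Tgfb1 lie above 0 and Il33 and Il6 below 0 in 4 of 4 pairs, and on the right Il1a does so above 0.

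Il1rn and Tgfb1, of the restraining side, were higher in each α7E260A:G library than in its pair, with overlapping ranges. Il1rn, the antagonist that competes with IL-1α and IL-1β for their receptor, was measured at 63.5 and 59.9 RPM in the male and female α7G control, at 47.3 and 71.3 RPM in α7G CS, at 67.9 and 100.2 RPM in α7E260A:G control and at 58.7 and 75.8 RPM in α7E260A:G CS. Its log2 fold change was 0.43 ± 0.27 (edgeR adjusted p = 0.630). Tgfb1, a latent growth factor that limits inflammation and drives matrix deposition, was the steadiest member, with a ratio of 1.63 between its highest and lowest library. It was measured at 170 and 144 RPM in the male and female α7G control, at 181 and 182 RPM in α7G CS, at 234 and 169 RPM in α7E260A:G control and at 218 and 187 RPM in α7E260A:G CS. Its log2 fold change was 0.33 ± 0.15 (edgeR adjusted p = 0.463). In all, 6 of 9 members differed in 1 direction in 4 of 4 pairs, and so did 22.2% of all genes tested.

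Tnf, Il1b and Csf1 overlapped between the genotypes and were not past the threshold, adjusted or not. Tnf, an early product of macrophages, was measured at 18.6 and 6.73 RPM in the male and female α7G control, at 4.89 and 13.0 RPM in α7G CS, at 15.4 and 14.3 RPM in α7E260A:G control and at 13.5 and 22.0 RPM in α7E260A:G CS. Of the α7E260A:G libraries 3 lay within the α7G range, with a log2 fold change of 0.71 ± 0.43 (edgeR adjusted p = 0.616). This Tnf value rested on single libraries, running from 0.45 without the female α7G control to 1.14 without the male α7G control, where the genotypes did not overlap, and 1.17 without the female α7G CS library. Il1b, which like Il18 needs caspase-1, was measured at 561 and 101 RPM in the male and female α7G control, at 190 and 153 RPM in α7G CS, at 215 and 200 RPM in α7E260A:G control and at 186 and 180 RPM in α7E260A:G CS. The 2 α7G control libraries were thus the highest and the lowest of the 8. The log2 fold change of −0.19 ± 0.44 (edgeR adjusted p = 0.943) rested on both. It was 0.63 without the male and −0.57 without the female. Neutrophil markers summed to 2889 RPM in that male library and to 956 RPM in the female α7G control, and to 1133 to 3243 RPM in the other libraries, and their part in the Il1b level was not tested. Csf1, the growth factor of the macrophage lineage, was measured at 26.5 and 23.9 RPM in the male and female α7G control, at 29.4 and 18.4 RPM in α7G CS, at 35.3 and 17.8 RPM in α7E260A:G control and at 38.4 and 17.1 RPM in α7E260A:G CS. The male library was the higher in each of the 4 groups, and the genotype log2 fold change was 0.19 ± 0.28 (edgeR adjusted p = 0.893). Csf1 has the longest CDS of the set, 1881 bases, and the libraries' dependence on length was more positive in the male than in the female of 3 groups. With that dependence removed, Csf1 was at 24.8 and 23.2 RPM in the male and female α7G control. It was then at 30.5 and 19.0 RPM in α7G CS. In α7E260A:G it was at 31.7 and 19.7 RPM in control and 35.7 and 17.8 RPM in CS. The part of length in the Csf1 difference between the sexes was not tested.

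**Figure D4:**
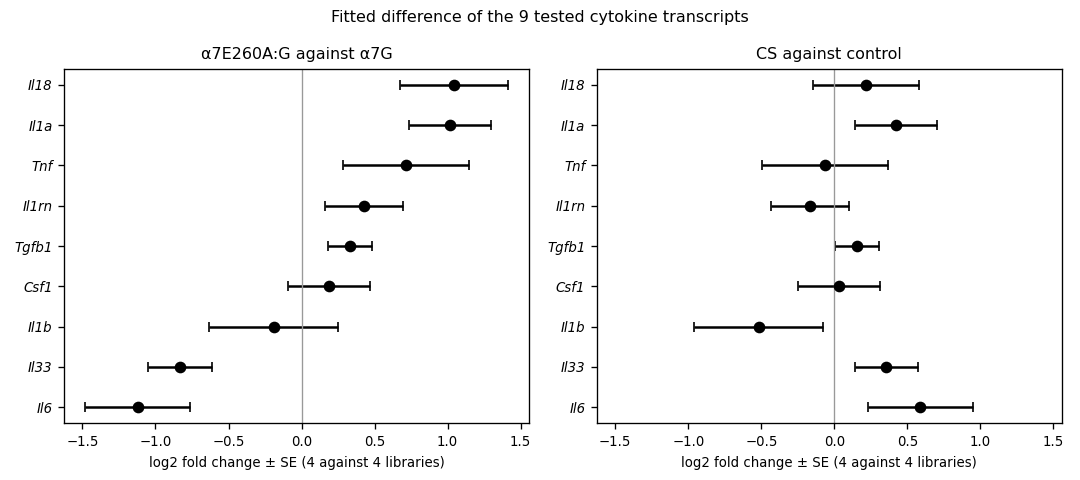
Fitted log2 fold change ± SE (points and bars, edgeR) of the 9 tested members for α7E260A:G against α7G (left) and CS against control (right), each 4 against 4 libraries. The genotype values run from −1.12 for Il6 to 1.04 for Il18 and the CS values from −0.52 for Il1b to 0.59 for Il6.

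Whether CS changed the cytokines was asked over both genotypes, setting the 4 CS libraries against the 4 control libraries. No member was past the threshold by edgeR, with an adjusted p or an unadjusted one, and of all genes tested 0% passed by the adjusted p (0 genes) and 7.64% by the unadjusted p. DESeq2 called no member either, where it called 68 of the 13637 genes tested. No member separated CS from control, as 2.77% of all genes did. The members were 6 higher and 3 lower, with a median log2 fold change of 0.15 against 0.01 over all genes tested. Il1a was higher with CS in 4 of 4 pairs, by ratios from 1.00 to 1.57, and 23.0% of all genes kept 1 direction in 4 of 4 pairs. Its log2 fold change was 0.42 ± 0.28 (edgeR adjusted p = 0.698). For Il6 it was 0.59 ± 0.36 (adjusted p = 0.677), for Il33 0.36 ± 0.22 (adjusted p = 0.677) and for Il1b −0.52 ± 0.44 (adjusted p = 0.741), all by edgeR. Without 1 library the Il6 value ran from 0.24 (without the male α7G CS) to 0.80 (without the female α7G CS) and the Il33 value from 0.16 (without the female α7E260A:G CS) to 0.50 (without the male α7E260A:G CS). For Il18, Il1rn, Tgfb1, Tnf and Csf1 it lay between −0.16 and 0.22 (adjusted p from 0.755 to 0.971 by edgeR). These 5 values came with standard errors of 0.15 to 0.43. The alveolar macrophage and ATII marker sums were at 1.15 and 1.05 times the control mean in the CS libraries.

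Within α7G, CS gave log2 fold changes from −0.78 ± 0.63 (Il1b) to 0.58 ± 0.52 (Il18), with adjusted p from 0.639 to 0.964 by edgeR, and 0% of all genes passed by the adjusted p and 6.71% by the unadjusted p. Within α7E260A:G the values ran from −0.41 ± 0.38 (Il1rn) to 0.99 ± 0.52 (Il6), each with an adjusted p of 1.00 by edgeR, where 0.00733% of all genes passed by the adjusted p and 3.14% by the unadjusted one. No member passed either threshold in these contrasts. The fitted Il6 value in α7E260A:G was 0.32 without the male CS library and 1.41 without the female CS library. Il6 in α7E260A:G was higher with CS 3.03 times in the male pair and 1.24 times in the female pair. Il33 in α7E260A:G was higher with CS 2.08 times in the female pair and 1.11 times in the male pair. In α7G the corresponding Il33 ratios were 1.06 in the male and 0.960 in the female.

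The difference between genotypes in the response to CS was tested itself, as an interaction. No member passed, with an adjusted p of 1.00 by edgeR for each of the 9, and 0% of all genes passed by the adjusted p and 2.18% by the unadjusted p, which no member reached. The fitted interaction was 0.80 ± 0.71 for Il6, 0.43 ± 0.43 for Il33, 0.53 ± 0.88 for Il1b, 0.56 ± 0.86 for Tnf, −0.72 ± 0.73 for Il18 and −0.40 ± 0.30 for Tgfb1. The Il6 interaction ran from 0.13 without the male α7E260A:G CS library to 1.45 without the male α7G CS library. The standard errors were as large as most of these values, so differences of this size were not detectable here.

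**Figure D5:**
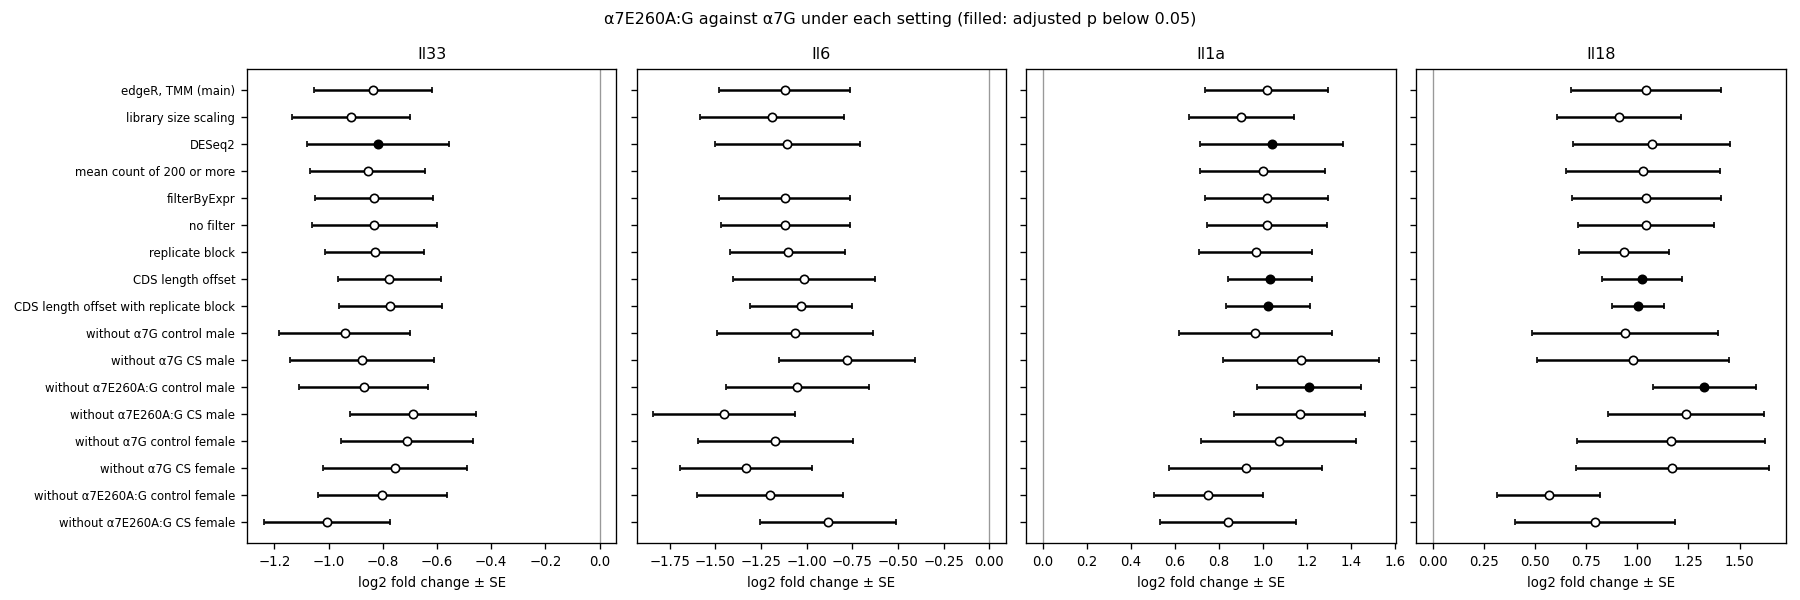
Log2 fold change ± SE of α7E260A:G against α7G for the 4 members with an unadjusted p under 0.05, under each processing setting (rows); filled points have an adjusted p below 0.05. Il33 and Il6 lie below 0 and Il1a and Il18 above 0 in every setting drawn, and 8 points are filled.

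Whether these 4 members were past the threshold changed with the handling of the whole table, while their fold changes kept their sign. Over the 16 alternatives the Il33 log2 fold change ran from −1.01 to −0.69 and that of Il1a from 0.75 to 1.21. That of Il18 ran from 0.57 to 1.33, and that of Il6, over 15 alternatives, from −1.45 to −0.78. With DESeq2, Il1a (adjusted p = 0.0404) and Il33 (adjusted p = 0.0482) were past the threshold, and 516 genes in all were. With an offset for CDS length in edgeR, Il18 (1.02 ± 0.20, adjusted p = 0.0274) and Il1a (1.03 ± 0.19, adjusted p = 0.0247) were, among 485 genes. Without the male α7E260A:G control library, the one whose counts rose most with length, Il18 (adjusted p = 0.0311) and Il1a (adjusted p = 0.0346) were past the threshold by edgeR, among 418 genes. Il6 was past it in none of the alternatives, the lowest adjusted p being 0.0739.

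The listed receptors and soluble inhibitors leaned higher in α7E260A:G and lower with CS. Besides receptors of the cytokines followed here, the list holds Csf2ra, Csf2rb and Csf3r. These are receptor genes of GM-CSF and G-CSF, which are not members of the cytokine set. Of 20 listed and tested genes 17 were higher in α7E260A:G, with a median log2 fold change of 0.43 against 0.03 over all genes. None passed the adjusted p by edgeR, whereas 6 of 20 passed the unadjusted one, against 11.4% of all genes. The list was likewise chosen with earlier results of these data known, so its shares are descriptions only. The median was 0.19 (15 of 20 higher) without the male α7E260A:G control library and 0.27 (15 of 20 higher) without the male α7E260A:G CS library. The alveolar macrophage markers, 15 of 15 of which were higher in α7E260A:G, moved with this list, and their part was not tested. Csf2rb, the signalling chain of the GM-CSF receptor of alveolar macrophages, had a log2 fold change of 1.05 ± 0.23 (edgeR adjusted p = 0.132). Tgfbr1, the kinase chain of the TGF-β receptor, had 1.03 ± 0.25 (adjusted p = 0.164) and Csf2ra 0.65 ± 0.17 (adjusted p = 0.190), both by edgeR. Csf2rb was measured at 145 to 240 RPM in α7G and at 246 to 545 RPM in α7E260A:G. DESeq2 called Csf2rb (adjusted p = 0.00220), Tgfbr1 (adjusted p = 0.0105) and Csf2ra (adjusted p = 0.0241).

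With CS, 17 of the 20 receptor genes were lower, with a median log2 fold change of −0.49 against 0.01 over all genes, and 6 of 20 passed the unadjusted p, against 7.64% of all genes, and none the adjusted one by edgeR. Without the male α7E260A:G control library the median was −0.30, and without the male α7G control library −0.31. Within α7E260A:G the median was −0.33 (4 higher and 16 lower with CS), and 0.12 (13 higher and 7 lower) without the male α7E260A:G control library. Monocyte and interstitial macrophage markers summed to 1064 to 1152 RPM in the CS libraries and 1120 to 1914 RPM in control, a ratio of means of 0.691 with 8 of 10 genes lower in the CS mean. Csf1r stands in both this marker list and the receptor list, so the 2 lists share counts. It was at 249 to 550 RPM in CS and 310 to 893 RPM in control. Dendritic cell markers summed to 170 to 334 RPM in CS and 288 to 409 RPM in control, a ratio of 0.735 with 8 of 9 genes lower. The part of these cells in the receptor values was not tested. Il1rl1, the IL-33 receptor, was measured at 11.5 and 12.6 RPM in the male and female α7G control and at 1.51 and 3.05 RPM in the α7G CS libraries. In α7E260A:G it was 10.7 and 5.48 RPM in control and 8.98 and 3.54 RPM in CS. With CS its log2 fold change came to −2.26 ± 0.54 in α7G (edgeR adjusted p = 0.639) and −0.44 ± 0.51 in α7E260A:G, and the interaction of 1.82 ± 0.74 was not past the threshold (edgeR adjusted p = 1.00). Il18rap, the accessory chain of the IL-18 receptor, was measured at 58.2 and 65.9 RPM in α7G control and at 22.7 and 18.6 RPM in α7G CS, and at 53.4 and 35.5 RPM in α7E260A:G control and 42.0 and 23.1 RPM in α7E260A:G CS. Its log2 fold change with CS over both genotypes was −0.99 ± 0.20 (edgeR adjusted p = 0.612; DESeq2 adjusted p = 0.0132). In a fit of the 4 α7G libraries alone 5 receptor genes passed, Il1rl1 (adjusted p = 0.0262 by edgeR) and Il18rap (adjusted p = 0.0226) among them, when 980 genes in all did. The 2 male and 2 female α7G libraries differed in length dependence by exposure as well, with slopes of 0.18 and 0.06 log2 units per doubling in the male and female control and −0.20 and −0.18 in the male and female CS, and with the length offset the median of the receptor list within α7G was −0.33 in place of −0.57. That median was −0.07 (8 higher and 12 lower) without the male α7G control library and −0.89 without the female α7G control library.

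The processing and signalling genes showed no common direction with genotype. Of 25 tested, 15 were higher and 10 lower in α7E260A:G, with a median log2 fold change of 0.05 against 0.03 over all genes, and none passed the adjusted p by edgeR. Adam17, the sheddase that frees TNF from the membrane, had the lowest p of the list (0.92 ± 0.22, edgeR adjusted p = 0.160), at 113 RPM on average in α7G and 201 RPM in α7E260A:G. Nlrc4, an inflammasome sensor, had 0.59 ± 0.22 and Casp8 0.39 ± 0.19. With CS 19 of the 25 were lower, with a median of −0.10, Jak2 (−0.56 ± 0.22) and Stat3 (−0.42 ± 0.21) having the lowest p (edgeR adjusted p = 0.645 and 0.658).

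Other ligands of the cytokine families divided evenly. Of 33 listed, 22 were abundant enough to test, and 10 were higher and 12 lower in α7E260A:G, none past the adjusted p by edgeR. Il27, a macrophage product of the IL-12 family, was measured at 1.13 to 2.89 RPM in α7G and 3.05 to 5.39 RPM in α7E260A:G (log2 fold change 1.57 ± 0.44, edgeR adjusted p = 0.204). Ltb, the membrane-bound lymphotoxin of lymphocytes, was lower in each α7E260A:G library, at 124 to 208 RPM against 219 to 412 RPM (−0.74 ± 0.26, edgeR adjusted p = 0.322), and Lta had −0.76 ± 0.35. B cell markers were lower as well, at 965 to 1208 RPM in sum against 1495 to 2323 RPM, and their part in the Ltb value was not tested. With CS, Il12b had −1.73 ± 0.60 and Lif 1.35 ± 0.57 (edgeR adjusted p = 0.645 for both). Both were low, at 0.349 to 4.93 RPM for Il12b and 0.274 to 4.40 RPM for Lif over the 8 libraries.

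Genes linked to the storage, tethering or activation of latent TGF-β were measured beside Tgfb1. Of 10 listed, 9 were tested, of which 6 were higher and 3 lower in α7E260A:G, with a median log2 fold change of 0.38, none past the adjusted p by edgeR. Itgb6, the epithelial integrin chain that frees TGF-β1 from its latent complex, had −1.39 ± 0.56 (edgeR adjusted p = 0.401) at levels of 1.24 to 5.55 RPM in α7G and 0.997 to 1.99 RPM in α7E260A:G. Ltbp2, a matrix protein of the latent TGF-β binding family, had 0.69 ± 0.29 and Lrrc33, which tethers latent TGF-β1 on myeloid cells, 0.38 ± 0.19. With CS, Itgav, the partner chain of Itgb6, had −0.68 ± 0.28 (edgeR adjusted p = 0.645) and Lrrc33 −0.22 ± 0.19 (edgeR adjusted p = 0.742).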

How the data were processed

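RNA-Seq libraries were prepared from CD45-depleted distal lung cells. The authors aligned reads with STAR to mm9 (NCBIM37) and counted them on CDS exons of GENCODE release M1 with htseq-count; versions and the strand setting were not given in the sources used here. The deposited values are raw counts per gene, without normalization, filter or pooling. All 22756 symbols and identifiers were found in that annotation, which gave CDS lengths.

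RPM are counts per 1000000 counts of a library. Groups came from the sample labels, with replicate 1 male and replicate 2 female. The 13637 genes whose counts averaged 10 or more were fitted by edgeR 4.0.16 (R 4.3.3; TMM, quasi-likelihood test, means of 4 groups, Benjamini-Hochberg over all genes tested, 0.05), with contrasts for genotype, CS, CS in each genotype and their interaction. A two-sided exact permutation test over libraries used 70 arrangements (smallest p 0.0286). Alternatives were DESeq2 1.42.0, library size scaling, 3 other filters, a block for replicate number (that is, for sex), an offset for CDS length, fits of 1 genotype and leaving out each library. The scripts were tested on simulated data. Same-sex libraries shared a sex but no stated animal, and the correlations of their deviations ran from −0.0184 to 0.587 over pairs of groups. The paper averaged male and female, so the main fit held no term for sex. The permutation test did not use the pairs by sex either. The members and gene lists were chosen with earlier results of these data known. From each list, genes past the adjusted p in any contrast were named, or otherwise the 3 with the lowest p for genotype and the 2 for CS. Marker lists whose genotype ratio is not given above had ratios of α7E260A:G to α7G means of 1.05 (monocyte and interstitial macrophage), 0.754 (dendritic cell), 1.04 (neutrophil), 0.927 (T and NK cell) and 0.537 (B cell). The ratios were 1.12 (pan-leukocyte), 0.592 (club cell), 0.820 (endothelial), 1.33 (fibroblast) and 0.618 (mesothelial) for the remaining lists.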

Additional observations from a re-analysis of the deposited data

Results flagged for a closer look

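Of 40 sets of 4 libraries examined (10 members, by genotype and by exposure), 3 held a library whose gap to its nearest neighbour was above Dixon's critical value, where chance gives about 1 in 20. Il6 in the male α7E260A:G CS library, at 10.7 RPM, stood above the other 3 α7E260A:G libraries (3.38 to 4.20 RPM). Tgfb1 in the same library, at 218 RPM, stood above the other 3 CS libraries (181 to 187 RPM). Il10 in the female α7E260A:G CS library, at 0.111 RPM, stood below the other 3 α7E260A:G libraries, on 1 count.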

How the results depend on the processing

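Of 728 recomputed member values (log2 fold changes of each contrast under each alternative), 657 kept their direction and their side of the threshold, 8 were past the threshold under the alternative alone and 63 changed sign, none of them past the threshold. The genotype count of members called, 0 in the report, was 2 with DESeq2, with the CDS length offset, and with that offset and the replicate block together. Leaving out 1 library, it ran from 0 to 2, the 2 being Il18 and Il1a without the male α7E260A:G control. The replicate block alone called 0 members, and 43 genes in all. The members whose genotypes did not overlap numbered 1 of 9 in RPM (Il33, lower; 7.88% of all genes) and 1 with TMM (Tgfb1, higher; 7.50%), 3 once the dependence on CDS length was removed (Il1a, Il18, Il33; 10.6%), and 1 to 3 without 1 library (9.72% to 13.1%). Il33 was among them whichever library was left out. Another criterion, the same direction in all pairs, held for 6 members (22.2% of all genes), 5 of which overlapped. For CS the members not overlapping numbered 0, and 0 to 1 without 1 library (3.61% to 12.6% of all genes), being Tgfb1 without the male α7E260A:G control and Il1b without the female α7G control; the same direction in all pairs held for 1 (Il1a; 23.0%).

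Under library size scaling, Csf1 was −0.005 with CS, −0.075 with CS in α7G and 0.14 in the interaction, Il1rn was −0.058 with CS in α7G, Tgfb1 was 0.0069 with CS in α7E260A:G and Il1a was 0.10 in the interaction; this scaling moved the median of all genes by −0.14 for CS in α7G and by 0.21 in the interaction. With CS in α7G, the CDS length offset gave −0.25 for Il6, −0.16 for Il33 and −0.38 for Il1rn, and with the replicate block added −0.34, −0.16 and −0.41; the interaction of Il1a was then 0.13 and 0.12. Csf1 was −0.0072 with CS under the replicate block. With CS in α7E260A:G Csf1 was −0.025 (DESeq2), −0.0095 (mean count of 200), −0.022 (replicate block), −0.0097 (length offset), −0.039 (offset and block) and −0.012 (that genotype alone). The cause of these changes was not tested.

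Without 1 library each, genotype values ran from −0.57 to 0.63 for Il1b and from −0.082 to 0.39 for Csf1. With CS they ran from −0.52 to 0.37 (Tnf), −0.89 to 0.31 (Il1b), −0.078 to 0.70 (Il18), −0.36 to 0.10 (Il1rn) and −0.24 to 0.21 (Csf1). With CS in α7G they ran from −1.25 to 0.51 (Tnf), −1.53 to 0.87 (Il1b), −0.48 to 0.62 (Il6), −0.069 to 0.39 (Il33), −0.27 to 0.33 (Il1rn) and −0.33 to 0.34 (Csf1). With CS in α7E260A:G they ran from −0.35 to 0.61 (Tnf), −0.051 to 0.91 (Il1a), −0.71 to 0.84 (Il18), −0.80 to 0.14 (Il1rn), −0.083 to 0.012 (Tgfb1) and −0.53 to 0.38 (Csf1). In the interaction they ran from −0.30 to 1.45 (Tnf), −0.52 to 0.44 (Il1a), −1.12 to 1.28 (Il1b), −1.29 to 0.28 (Il18), −0.88 to 0.073 (Il1rn) and −0.60 to 0.34 (Csf1). A library left out leaves its group with 1 library, assumed to vary like the others.

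Counts over all genes moved by more than 1.5 times from the 13 of the genotype test: 6 at a mean count of 200, 69 without a filter, 43 with the block, 485 and 711 with the length offset without and with the block, 516 with DESeq2, and 1 to 646 without 1 library. For CS in α7G 980 genes were called in the fit of that genotype alone, against 0. With 2 libraries per group, Tnf, Il6 and Il10, under a mean of 200 counts, are the least certain.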
